A study of Mus musculus with 9 samples.

Results

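The genes described here are 36 germline genes, chosen by symbol from the 40213 gene symbols counted in each library: genes of meiotic chromosomes, of the piRNA pathway and of germ cell identity, many of which are known to be silenced in somatic cells by promoter methylation. All 36 were found, and all 36 passed the low-count filter that left 16562 genes for testing. By role they comprised 11 meiotic chromosome genes, 12 piRNA pathway genes, 7 germ cell regulators and 6 other germline genes.

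Total RNA was sequenced from 9 mouse embryonic stem (ES) cell libraries, 3 each of J1, OCT4 stable cells and EWS-OCT4 stable cells, all cultured with the self-renewal cytokine LIF. J1, an unmodified male ES line, was the control named by the series. The others, labelled Niwa OCT-4 and Niwa EWS-OCT-4 stable cell lines, are named for OCT4 and for its fusion to EWS, an RNA-binding protein, and received doxycycline (1 µg/ml), which the labels say lowers endogenous OCT4. Whether J1 also received doxycycline is not said in the labels, and neither is whether numbered libraries were independent cultures, so p-values cover the spread among these libraries alone. Each stable line appears under a single cell line name, so construct, host and clone cannot be told apart.

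Meiosis is the division that makes haploid gametes. Its chromosomes are built on an axis of meiosis-specific cohesin and SYCP2-SYCP3 filaments, and paired chromosomes are zipped by the synaptonemal complex. The piRNA pathway loads small RNAs onto PIWI proteins, which silence transposons in germ cells by cleavage and by directing DNA methylation. Mouse ES cells transcribe a number of these genes at low to moderate levels, under restraint from DNA methylation and from a Polycomb-type complex that holds E2F6, MGA and MAX and binds E2F and E-box motifs.

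Library totals were 21149358 to 24786305 counts, and a member had between 3 and 3734 counts in a library. Pou5f1, the OCT4 gene, had 568 ± 61.8 CPM (the depth-scaled read count used throughout, shown with SD, n = 3) in J1, 165 ± 2.60 in the OCT4 cells and 26.8 ± 2.12 in the EWS-OCT4 cells. The 8 ES cell markers checked were counted in every group, and their summed level was 4472 to 4901 CPM in J1, 2952 to 3022 in the OCT4 cells and 3240 to 3338 in the EWS-OCT4 cells. They did not move together. Nanog alone was called higher, at 509 and 481 CPM in these lines against 261 in J1, and Dppa5a was called in neither. Those called lower numbered 6 and 4, beside 32.7% and 31.6% of all tested genes. Zfp42, at 1424 CPM in J1, fell to 429 and 758. The 7 spermatid markers together stayed at or below 0.546 CPM in every library, with Acrv1 at 0 in all 9. Of 8 oocyte markers, Oosp1 was at 0 in all libraries, and the sum was 1.35 to 5.97 CPM, with Zp3 the only 1 to reach 1 CPM in any group. Of 7 spermatogonial markers Nanos2 was also at 0 throughout, but the others were counted. Their sum was 209 to 278 CPM in J1, 153 to 179 in the OCT4 cells and 232 to 263 in the EWS-OCT4 cells. Most of it was Sall4, at means of 163.5, 127.6 and 210.4 CPM. Markers of 2-cell-like cells summed to 19.8 to 23.8 CPM in J1, 128 to 144 in the OCT4 cells and 119 to 138 in the EWS-OCT4 cells. All 7 that could be tested were higher than J1 in the OCT4 and EWS-OCT4 cells, beside 34.3% and 30.3% of all tested genes. The 7 primordial germ cell markers summed to 292.6 to 306.6 CPM in J1, 415 to 431 in the OCT4 cells and 439 to 445 in the EWS-OCT4 cells. They did not move together in the OCT4 cells. There 3 were higher than in J1 and 2 lower, beside 34.3% and 32.7% of all tested genes. Tfap2c was at 215 CPM there against 90.9 in J1, and Dppa3 at 3.74 against 17.0. In the EWS-OCT4 cells 6 of the 7 were higher than in J1 and 0 lower, beside 30.3% and 31.6%. Their median log2 fold change was 0.29. The 7 fibroblast markers summed to 68.4 to 87.4 CPM in J1, 34.0 to 40.1 in the OCT4 cells and 22.9 to 26.3 in the EWS-OCT4 cells. Nearly all of it was Thy1 and Col1a1, at 44.9 and 31.2 CPM in J1. Under 1 CPM were 4 of the 7 in J1 and in the OCT4 cells and 5 in the EWS-OCT4 cells. Col1a2 did not differ by the test between the OCT4 cells and J1 (log2 fold change 0.11, SE 0.269). The part of these other cell states in the results below was not tested.

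Scaled per kilobase of the longest annotated transcript, the members spanned the ordinary range of expressed genes. Their median level was 4.14 CPM per kilobase in J1, 5.78 in the OCT4 cells and 3.10 in the EWS-OCT4 cells. The median member stood at percentiles 48.3, 53.5 and 42.25 of the tested genes that had an annotated transcript length. Tex19.1, which restrains retrotransposons, was the highest member in J1 at 47.8 CPM per kilobase. Rpl10l, an intronless copy of a ribosomal protein gene that is used in the testis, was the highest in both stable lines, at 32.1 and 61.7. The lowest were Asz1 in J1 (0.0598), Piwil4 in the OCT4 cells (0.168) and Dpep3 in the EWS-OCT4 cells (0.218).

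**Figure D1:**
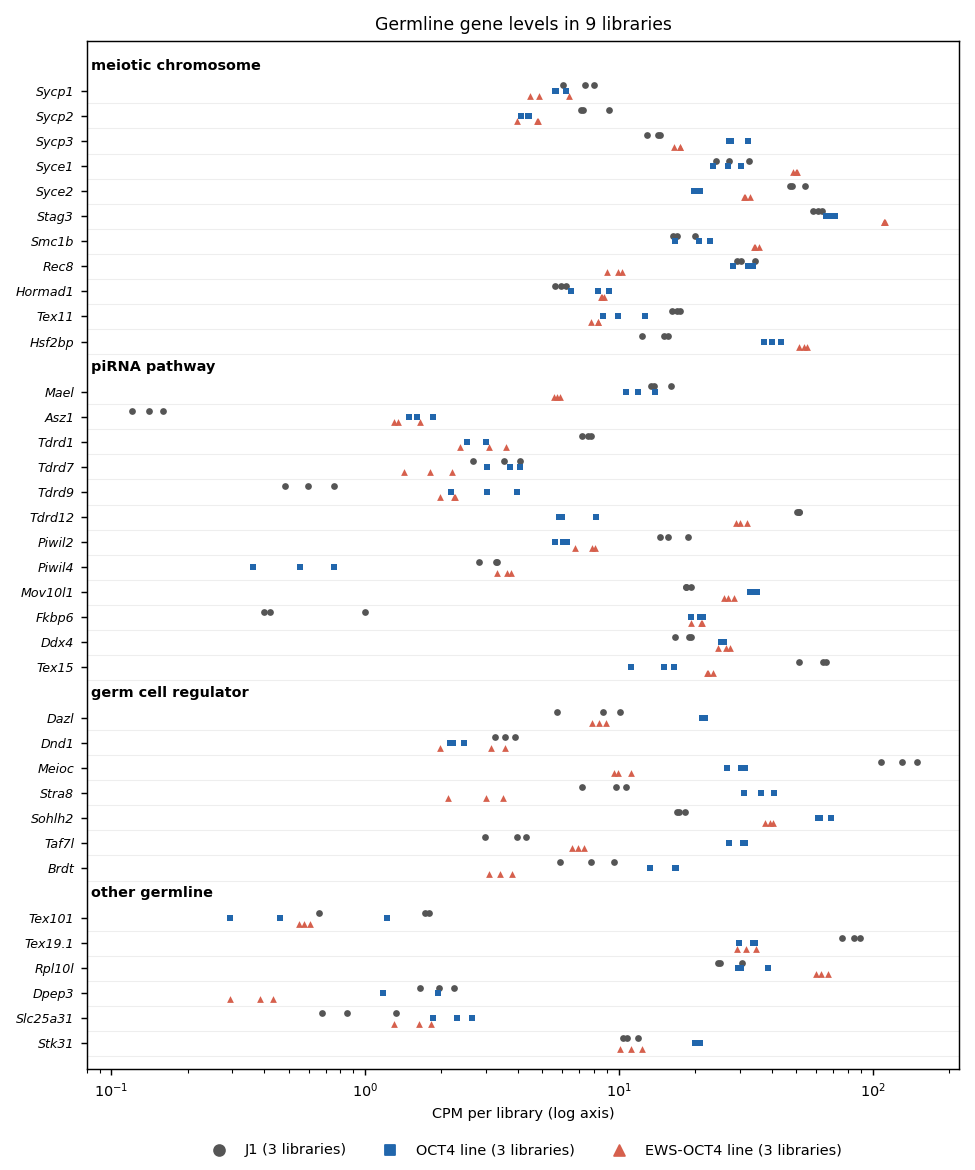
CPM of each member in each library on a log axis, by role; circles are J1, squares the OCT4 cells and triangles the EWS-OCT4 cells, with 3 libraries each. Replicates of a line lie close together for most members, while Fkbp6, Asz1 and Tdrd9 in J1 and Piwil4 in the OCT4 cells lie far to the left of the other libraries.

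All 36 members were called in at least 1 comparison, while 12.6% of all tested genes had no call in any. Against J1, 17 of the 36 members were higher and 12 lower in the OCT4 cells (edgeR quasi-likelihood test, Benjamini-Hochberg adjusted p under 0.05), where 34.3% of all tested genes were higher and 32.7% lower (67.0% in all). In the EWS-OCT4 cells 15 were higher and 17 lower than in J1, where 30.3% and 31.6% of all tested genes were (61.9% in all). Directly compared, the EWS-OCT4 cells had 10 members higher and 14 lower than the OCT4 cells, beside 31.9% and 34.6% of all tested genes (66.5% in all). The libraries of the groups did not overlap for 27 members in the first comparison, 31 in the second and 25 in the third, as for 68.4%, 65.7% and 72.8% of all tested genes. Both comparisons with J1 use the same J1 libraries.

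Changes of at least 2-fold were frequent among the members against J1. They numbered 20 in the OCT4 cells (11 higher, 9 lower), or 55.6% of the members, against 26.5% of all tested genes (15.0% higher, 11.5% lower). The EWS-OCT4 cells had 18 (6 higher, 12 lower), or 50% of the members, against 20.5% (8.10% higher, 12.5% lower). Between the stable lines there were 11 (2 higher, 9 lower in the EWS-OCT4 cells), or 30.6%, against 24.3% (8.54% higher, 15.8% lower). The median log2 fold change of the members was 0.13 in the OCT4 cells and -0.14 in the EWS-OCT4 cells against J1, beside 0.01 and 0.00 for all tested genes. By library, their median log2 CPM relative to the J1 mean was 0.185, 0.028 and 0.166 in OCT4 replicates 1, 2 and 3. In EWS-OCT4 replicates 1, 2 and 3 it was 0.008, 0.012 and -0.36, so only replicate 3 was clearly below J1. Large changes in both directions thus lay behind small medians.

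A total of 15 members were called in all 3 comparisons, or differed between every pair of lines, as did 29.9% of all tested genes. By those calls, 4 members had the order J1 over EWS-OCT4 over OCT4 (Syce2, Tdrd12, Piwil2 and Tex15), as did 5.9% of all tested genes. Another 4 had the order OCT4 over EWS-OCT4 over J1 (Sycp3, Mov10l1, Sohlh2 and Taf7l), as did 6.4%. The EWS-OCT4 cells led the OCT4 cells and then J1 for Stag3, Hsf2bp and Rpl10l (3.22% of all tested genes). J1 led the OCT4 cells and then the EWS-OCT4 cells for Meioc and Tex11 (3.76%). Only Stra8 and Brdt moved in opposite directions against J1 in the 2 stable lines, a pattern found in 10.6% of all tested genes. In another 6 members (Hormad1, Asz1, Tdrd9, Fkbp6, Ddx4 and Slc25a31) both stable lines exceeded J1 and their difference from each other did not pass, as in 6.76% of all tested genes. Conversely, Sycp2, Tdrd1, Tex101 and Tex19.1 were lower in both, again with no call between them, as were 8.18%.

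Meiotic chromosome genes and piRNA genes were set side by side in each comparison. Among all tested genes, 34.3% were higher and 32.7% lower in the OCT4 cells than in J1. The shares were 30.3% and 31.6% in the EWS-OCT4 cells against J1, and 31.9% and 34.6% between the stable lines. Of the 11 meiotic chromosome genes, 4 were higher and 3 lower in the OCT4 cells than in J1, where the median change was 0.01 on the log2 scale and the median size 0.44. The 12 piRNA genes divided into 5 higher and 5 lower, with a median of -0.08 and a median size of 1.78, beside a median size of 0.54 for all tested genes. In the EWS-OCT4 cells against J1, 6 meiotic chromosome genes were higher and 5 lower (median 0.30, from -1.69 to 1.90), and 5 piRNA genes were higher and 6 lower (median -0.29, from -1.40 to 5.05). Between the stable lines the counts were 5 higher and 3 lower for meiotic chromosome genes, and 4 and 3 for piRNA genes. So neither class shifted as a block. The median size in the EWS-OCT4 cells against J1 was 0.83 for meiotic chromosome and 1.22 for piRNA genes, beside 0.45 for all tested genes. Between the stable lines the order was the other way, at 0.64 for meiotic chromosome and 0.42 for piRNA genes, beside 0.52 for all tested genes. The contrast between the classes was described and not tested. Without OCT4 replicate 1 only 2 meiotic chromosome genes were called higher in the OCT4 cells than in J1.

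**Figure D2:**
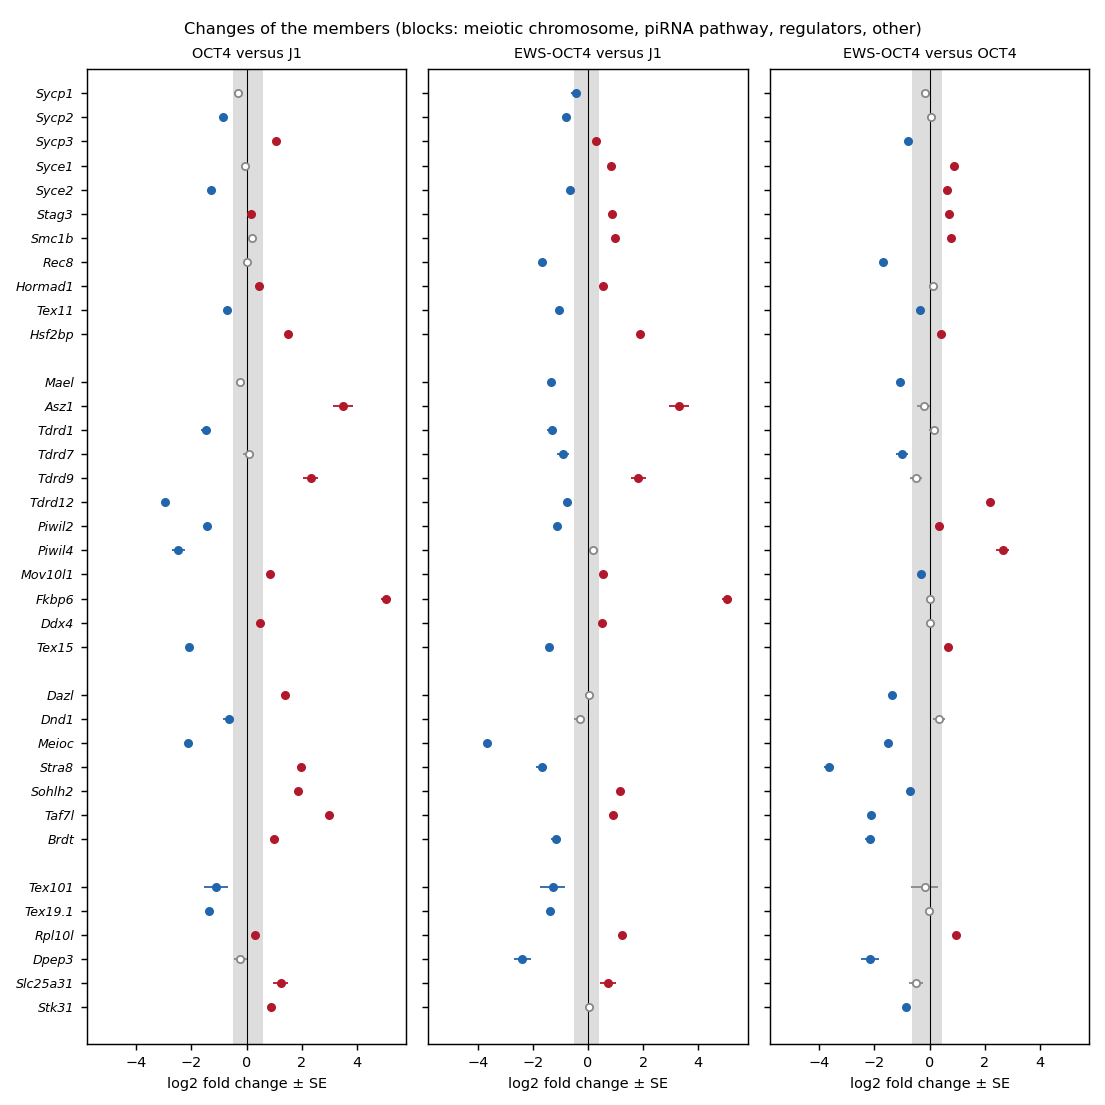
Log2 fold change with SE (edgeR) of each member in the 3 comparisons, in blocks by role; red points are called higher, blue lower and open grey points not called, and the grey band spans the middle quartiles of all tested genes. Fkbp6 lies at 5.05 in both comparisons with J1, and in the right panel no germ cell regulator is called higher.

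Promoters were examined because the complex named above is known to bind E-box and E2F motifs. RefSeq promoter windows (GRCm38.p6, 300 bases, 250 before the start and 50 after it) were matched by symbol for 32 of the 36 members, with 42 windows in all. The motifs searched were CACGTG, which reads the same on both strands, and GCGGGAA on both strands (TTCCCGC on the other), and no matches of the 2 overlapped. CACGTG, the E-box, lay in a window of 15 of the 32 members, or 46.9%, against 8.1% of 27025 RefSeq genes. The E2F-type motif lay in 10 members, or 31.2%, against 5.3%. Both were present in 16.67% of member windows and 0.46% of all windows. Member windows were also rich in CpG, with a median observed-to-expected CpG ratio of 0.724 against 0.384. Among windows with a ratio of at least 0.6, the E-box was in 60.0% of member windows and 11.3% of all, and the E2F-type motif in 36.7% and 10%.

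Motif matches were counted by class. An E-box was found for 5 of 10 meiotic chromosome genes and 6 of 10 piRNA genes, while the E2F-type motif was found for 6 and 1. The meiotic chromosome genes with the E2F-type motif were Hormad1, Hsf2bp, Smc1b, Stag3, Syce2 and Sycp3, and the piRNA gene was Ddx4. These letters are matches in a window, not shown binding sites.

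**Figure D3:**
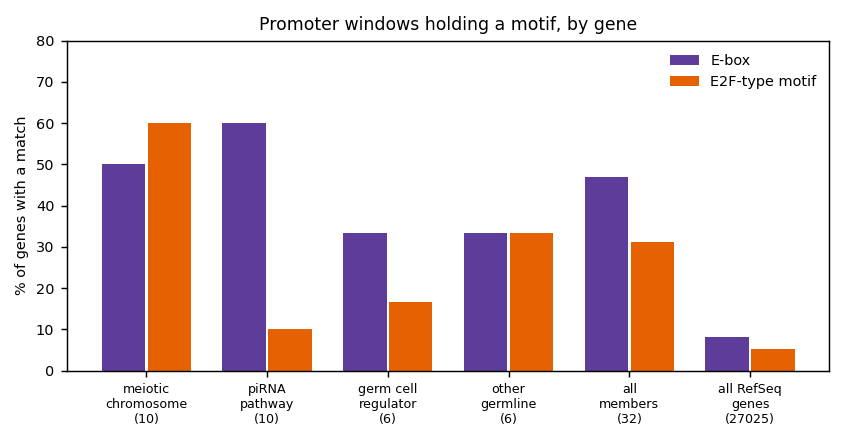
Share of genes with at least 1 promoter window that holds the E-box or the E2F-type motif, by role, with the number of genes in parentheses. The E2F-type bar stands at 60.0% for meiotic chromosome genes and far lower for piRNA genes, and both bars are under 10% for all RefSeq genes.

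The upstream 250 bases are printed for 7 members with large changes, chosen to show promoters with and without the motifs, with motif matches in capitals. Fkbp6 and Taf7l rose in both stable lines and hold E-boxes, Sycp3 holds both motifs, Hsf2bp and Meioc the E2F-type motif, and Stra8 and Tdrd12 neither.
Fkbp6 (chr5:135350045-135350294, minus strand): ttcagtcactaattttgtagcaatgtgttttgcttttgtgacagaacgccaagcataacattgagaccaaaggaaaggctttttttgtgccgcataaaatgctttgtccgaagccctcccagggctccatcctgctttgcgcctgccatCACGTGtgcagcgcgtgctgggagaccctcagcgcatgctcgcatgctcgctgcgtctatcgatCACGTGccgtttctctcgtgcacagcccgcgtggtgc
Taf7l (chrX:134476491-134476740, minus strand): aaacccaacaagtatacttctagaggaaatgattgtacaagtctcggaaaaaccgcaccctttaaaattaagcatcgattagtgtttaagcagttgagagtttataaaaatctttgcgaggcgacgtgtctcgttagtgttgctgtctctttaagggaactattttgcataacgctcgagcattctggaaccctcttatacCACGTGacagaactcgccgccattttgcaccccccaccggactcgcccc
Sycp3 (chr10:88459337-88459586, plus strand): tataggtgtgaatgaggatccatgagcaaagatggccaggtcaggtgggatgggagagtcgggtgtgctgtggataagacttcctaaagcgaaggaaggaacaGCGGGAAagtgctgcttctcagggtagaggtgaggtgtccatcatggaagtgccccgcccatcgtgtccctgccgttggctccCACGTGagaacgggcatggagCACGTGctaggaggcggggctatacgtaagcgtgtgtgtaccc
Hsf2bp (chr17:32034509-32034758, minus strand): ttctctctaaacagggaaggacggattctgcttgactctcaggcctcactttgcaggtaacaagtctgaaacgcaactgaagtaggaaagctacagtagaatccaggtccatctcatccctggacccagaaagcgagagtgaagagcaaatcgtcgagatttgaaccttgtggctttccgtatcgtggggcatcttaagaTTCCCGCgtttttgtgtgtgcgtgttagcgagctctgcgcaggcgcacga
Meioc (chr11:102665335-102665584, plus strand): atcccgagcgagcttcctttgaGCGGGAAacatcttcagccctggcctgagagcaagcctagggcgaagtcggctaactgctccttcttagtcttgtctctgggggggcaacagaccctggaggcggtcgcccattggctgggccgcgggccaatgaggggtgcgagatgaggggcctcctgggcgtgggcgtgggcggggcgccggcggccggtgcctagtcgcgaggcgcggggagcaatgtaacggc
Stra8 (chr6:34920698-34920947, plus strand): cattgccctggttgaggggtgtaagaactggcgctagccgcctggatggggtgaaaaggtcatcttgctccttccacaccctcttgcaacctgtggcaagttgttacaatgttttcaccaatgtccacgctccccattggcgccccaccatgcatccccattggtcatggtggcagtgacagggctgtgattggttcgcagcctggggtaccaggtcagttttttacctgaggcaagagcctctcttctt
Tdrd12 (chr7:35537745-35537994, minus strand): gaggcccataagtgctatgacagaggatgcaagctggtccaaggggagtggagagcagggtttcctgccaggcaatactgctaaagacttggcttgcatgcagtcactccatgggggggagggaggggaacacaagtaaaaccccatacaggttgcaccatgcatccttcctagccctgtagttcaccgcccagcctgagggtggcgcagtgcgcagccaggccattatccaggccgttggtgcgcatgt
The pair of E-boxes of Fkbp6 begins 101 and 37 bases before the start, the E-box of Taf7l 49 bases before it, and those of Sycp3 64 and 43 bases before it. Among the E2F-type matches, that of Hsf2bp begins 50 bases, that of Sycp3 147 bases and that of Meioc 228 bases before the start.

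Among the meiotic cohesin genes, Stag3 and Smc1b rose in the EWS-OCT4 cells and Rec8 fell. STAG3, SMC1B and the kleisin REC8 are meiosis-specific subunits of the ring that holds sister chromatids together. Stag3 stood at 58.4, 60.9 and 63.3 CPM in the J1 libraries, 71.3, 65.4 and 69.3 in the OCT4 cells and 111, 111 and 112 in the EWS-OCT4 cells. Smc1b stood at 16.9, 16.3 and 19.9 CPM in J1, 22.8, 16.6 and 20.7 in the OCT4 cells and 34.5, 34.2 and 35.7 in the EWS-OCT4 cells. For both genes all 3 EWS-OCT4 libraries were above the other 6. Against the OCT4 cells the log2 fold change was 0.70 (SE 0.0637) for Stag3 and 0.79 (SE 0.105) for Smc1b, with edgeR adjusted p = 3.62e-08 and 3.30e-06. The small rise of Stag3 in the OCT4 cells against J1 (0.18, SE 0.0644) was lost without the low-count filter, in a fit of only the 6 libraries compared, and without J1 replicate 1, OCT4 replicate 1 or OCT4 replicate 3 (adjusted p from 0.0616 to 0.0872). Smc1b passed in that comparison without OCT4 replicate 2 (adjusted p = 0.0176), where it otherwise did not.

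Rec8 did not share that rise. Its level was 30.3, 34.3 and 29.2 CPM in J1, 28.1, 32.3 and 33.7 in the OCT4 cells and 9.95, 10.3 and 9.01 in the EWS-OCT4 cells. J1 and the OCT4 cells overlapped and did not differ by the test (log2 fold change 0.01, SE 0.0901), whereas the EWS-OCT4 cells were lower than both without overlap. Against the OCT4 cells its log2 fold change was -1.69 (SE 0.0998, edgeR adjusted p = 1.14e-10), a 3.23-fold lower level.

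Synaptonemal complex genes did not move as 1 group. SYCP1 forms the transverse filaments, SYCP2 and SYCP3 the lateral elements, and SYCE1 and SYCE2 belong to the central element. Sycp3 was at 13.0, 14.6 and 14.3 CPM in J1, 27.1, 27.8 and 32.3 in the OCT4 cells and 17.4, 16.4 and 17.4 in the EWS-OCT4 cells, so the OCT4 cells were highest with no overlap (log2 fold change 1.06 against J1, SE 0.0913). Its partner Sycp2 was instead lower in both stable lines, at 4.31 ± 0.168 and 4.51 ± 0.463 CPM against 7.83 ± 1.16 in J1 (SD, n = 3). Syce2 was highest in J1 (47.3, 54.1 and 48.2 CPM), lowest in the OCT4 cells (20.9, 20.3 and 19.9) and between them in the EWS-OCT4 cells (31.1, 31.3 and 32.8). It lies on chromosome 8, whose median was -0.49 in the OCT4 cells and -0.45 in the EWS-OCT4 cells against J1, beside its own -1.29 (SE 0.0774) and -0.65 (SE 0.0749). Syce1, by contrast, was highest in the EWS-OCT4 cells at 49.7 ± 0.776 CPM, with J1 (27.9 ± 4.26) and the OCT4 cells (27.0 ± 3.50) overlapping. Sycp1 ranged from 4.46 to 7.97 CPM over the 9 libraries, and its lower level in the EWS-OCT4 cells than in J1 (-0.45, SE 0.154) was lost without EWS-OCT4 replicate 2 or 3 or J1 replicate 2 or 3 (adjusted p up to 0.0974). It passed in the OCT4 cells against J1 only without J1 replicate 1 (adjusted p = 0.0238). Counts of Sycp3 are uncertain, since 46.52% of its 31-base words also occur in Chpt1, whose exons overlap it on the opposite strand. Sycp1 shares 15.61% of such words, with its pseudogene Sycp1-ps1 leading.

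The remaining meiotic chromosome genes act in axis surveillance, crossing over and recombination. Hsf2bp, which encodes a BRCA2-binding recombination factor, rose most, from 12.4, 15.6 and 15.0 CPM in J1 to 40.2, 37.4 and 43.5 in the OCT4 cells and 51.4, 53.7 and 55.2 in the EWS-OCT4 cells. No 2 of these groups overlapped, and the log2 fold change was 1.49 (SE 0.0923) and 1.90 (SE 0.0918) against J1. An exon of Rrp1b overlaps Hsf2bp on the other strand, and whether counting used strand is not given. Hormad1, an axis protein that monitors synapsis, rose from 5.89 ± 0.296 CPM in J1 to 7.98 ± 1.36 and 8.61 ± 0.127 (SD, n = 3), with 36.31% of its 31-base words shared, mostly with Gm15529. Its call in the OCT4 cells were lost without OCT4 replicate 1 (adjusted p = 0.0515). X-linked Tex11, needed for crossovers in males, fell from 16.9 ± 0.646 CPM in J1 to 10.4 ± 2.06 in the OCT4 cells and 8.12 ± 0.287 in the EWS-OCT4 cells. The median of all 567 tested X-linked genes moved the opposite way in these comparisons, by 0.62 and 0.15. Between the stable lines Tex11 differed by -0.36 (SE 0.126) beside an X-linked median of -0.51, a call lost without EWS-OCT4 replicate 2 or OCT4 replicate 1 (adjusted p up to 0.159).

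Among piRNA genes, a group barely counted in J1 was present in both stable lines. Fkbp6 encodes a co-chaperone used in loading piRNAs. It stood at 0.401, 0.997 and 0.423 CPM in J1, 19.2, 21.5 and 20.9 in the OCT4 cells and 21.1, 21.4 and 19.3 in the EWS-OCT4 cells. Every stable-line library was thus far above every J1 library, and the stable lines overlapped, with a 33.1-fold difference from J1 in each (log2 fold change 5.05, SE 0.184, edgeR adjusted p = 1.61e-13 and 4.28e-13). Asz1, a scaffold at the mitochondrial surface, was counted 3, 4 and 3 times in the J1 libraries, 40, 33 and 38 times in the OCT4 cells and 28, 38 and 31 times in the EWS-OCT4 cells. Tdrd9, a Tudor-domain helicase, had 12, 15 and 16 counts in J1, 86, 67 and 52 in the OCT4 cells and 47, 52 and 47 in the EWS-OCT4 cells. Neither overlapped J1 in either line. The log2 fold changes against J1 were 3.50 (SE 0.353) and 3.30 (SE 0.359) for Asz1 and 2.32 (SE 0.273) and 1.83 (SE 0.283) for Tdrd9, the OCT4 cells first. Between the stable lines Tdrd9 differed by -0.50 (SE 0.230), which passed with upper-quartile scaling (adjusted p = 0.0493) or without OCT4 replicate 3 (0.0164) and otherwise did not.

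Another 4 piRNA genes were highest in J1 and lower in both stable lines. Tdrd12, a helicase of secondary piRNA production, stood at 51.5, 50.3 and 51.3 CPM in J1, 8.17, 5.96 and 5.83 in the OCT4 cells and 32.1, 30.0 and 28.9 in the EWS-OCT4 cells. The 3 lines did not overlap, and the OCT4 cells differed from J1 by -2.94 on the log2 scale (SE 0.106) and the EWS-OCT4 cells by -0.75 (SE 0.0913). Tex15, which takes part in piRNA-directed methylation and in meiotic repair, was at 63.8, 51.4 and 65.5 CPM in J1, 16.6, 15.1 and 11.2 in the OCT4 cells and 23.5, 22.3 and 22.5 in the EWS-OCT4 cells. Piwil2, the PIWI protein MILI, had 16.3 ± 2.22, 5.98 ± 0.319 and 7.56 ± 0.721 CPM in that order (SD, n = 3), and Tdrd1, a Tudor scaffold that binds it, 7.49 ± 0.326, 2.68 ± 0.275 and 3.01 ± 0.619. The stable lines overlapped for Tdrd1. The difference of Piwil2 between the stable lines (0.34, SE 0.130, edgeR adjusted p = 0.0303) was lost with upper-quartile scaling, with limma-voom and without EWS-OCT4 replicate 1 or 2 or OCT4 replicate 1 or 2 (adjusted p from 0.0523 to 0.094). Tex15 lies on chromosome 8, whose tested genes had a median of -0.49 in the OCT4 cells and -0.45 in the EWS-OCT4 cells against J1, beside its own -2.08 (SE 0.122) and -1.40 (SE 0.117).

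Piwil4, the nuclear PIWI protein MIWI2, was low in the OCT4 cells alone by these calls. Its CPM was 3.29, 3.31 and 2.82 in J1, 0.554, 0.361 and 0.756 in the OCT4 cells and 3.75, 3.63 and 3.33 in the EWS-OCT4 cells. The EWS-OCT4 libraries exceeded the OCT4 libraries by 6.31-fold (log2 fold change 2.66, SE 0.243, edgeR adjusted p = 3.46e-08). They did not differ from J1 by the test (0.18, SE 0.189), although each EWS-OCT4 value was above each J1 value. Piwil4 overlaps Gm10706 on the opposite strand.

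Other piRNA genes were lower in the EWS-OCT4 cells or modestly higher in both lines. Mael, whose protein links transposon silencing to piRNA precursors, was at 5.72, 5.88 and 5.56 CPM in the EWS-OCT4 cells, below all libraries of J1 (16.01, 13.7 and 13.3) and the OCT4 cells (13.8, 10.7 and 11.9). Its difference between the OCT4 cells and J1 (-0.25, SE 0.112) did not pass, but did without J1 replicate 2 or 3 or OCT4 replicate 1 (adjusted p down to 0.0193) and with the replicate number as a block (0.0387). Tdrd7, a Tudor protein of the chromatoid body, had 1.82 ± 0.391 CPM in the EWS-OCT4 cells against 3.43 ± 0.713 in J1 and 3.61 ± 0.535 in the OCT4 cells. Mov10l1, the helicase that feeds piRNA precursors, rose from 18.7 ± 0.459 CPM in J1 to 33.8 ± 1.08 in the OCT4 cells and 27.1 ± 1.23 in the EWS-OCT4 cells. Ddx4, the VASA helicase that marks germ cells, rose from 18.2 ± 1.42 to 25.7 ± 0.274 and 26.2 ± 1.37 CPM (SD, n = 3), and its stable lines overlapped.

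The 7 germ cell regulators were the most one-sided of the 4 classes between the stable lines. Of them 6 were lower in the EWS-OCT4 cells and 0 higher, where 34.6% of all tested genes were lower and 31.9% higher. Their median log2 fold change was -1.52 beside -0.04 for all tested genes. At an unadjusted p under 0.05 none was higher either, and limma-voom and DESeq2 called the same 6 lower and none higher. Against J1 the OCT4 cells had 5 higher and 2 lower, beside 34.3% and 32.7% of all tested genes.

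Stra8, which retinoic acid induces to start meiosis, had the largest difference of the 36 members between the stable lines. Its CPM was 7.14, 10.6 and 9.77 in J1, 36.4, 31.1 and 41.1 in the OCT4 cells and 3.51, 2.12 and 2.99 in the EWS-OCT4 cells, with no overlap between any of the lines. Against J1 it rose in the OCT4 cells (log2 fold change 1.98, SE 0.149) and fell in the EWS-OCT4 cells (-1.68, SE 0.191), and between the stable lines it differed by -3.66 (SE 0.175, edgeR adjusted p = 6.92e-11), or 12.7-fold. Brdt, a testis bromodomain protein that reads acetylated histones, followed the same order, at 9.55, 5.86 and 7.75 CPM in J1, 16.8, 13.3 and 16.6 in the OCT4 cells and 3.08, 3.42 and 3.79 in the EWS-OCT4 cells. Its difference between the stable lines was -2.18 (SE 0.166, edgeR adjusted p = 4.13e-09). For these genes the OCT4 libraries were all above J1 and the EWS-OCT4 libraries all below it.

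Meioc, which with YTHDC2 keeps germ cells in the meiotic programme, had the largest fall of the 36 members in the EWS-OCT4 cells against J1. It stood at 149.9, 108 and 130.4 CPM in J1, 30.2, 26.8 and 31.4 in the OCT4 cells and 9.61, 9.95 and 11.2 in the EWS-OCT4 cells. The step from J1 was 4.39-fold to the OCT4 cells and 12.6-fold to the EWS-OCT4 cells (log2 fold change -2.14, SE 0.105, and -3.66, SE 0.117). Meioc lies on chromosome 11, where the median of 1262 tested genes was -0.47 and -0.51 in the same comparisons.

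Other regulators were raised in the OCT4 cells. X-linked Taf7l, a germ cell form of a TFIID subunit, had 2.97, 3.99 and 4.32 CPM in J1, 30.8, 27.3 and 31.6 in the OCT4 cells and 6.53, 7.31 and 6.90 in the EWS-OCT4 cells. Both stable lines were above J1 without overlap, by log2 fold changes of 3.00 (SE 0.123) and 0.89 (SE 0.137), beside X-linked medians of 0.62 and 0.15. Sohlh2, a basic helix-loop-helix factor of early germ cell differentiation, was at 17.5 ± 0.657, 63.9 ± 4.06 and 39.2 ± 1.48 CPM in J1, the OCT4 cells and the EWS-OCT4 cells (SD, n = 3). Dazl, an RNA-binding protein that licenses germ cells for gamete formation, was highest in the OCT4 cells at 21.8, 21.4 and 21.3 CPM, whereas J1 (10.2, 5.70 and 8.64) and the EWS-OCT4 cells (8.89, 8.39 and 7.87) overlapped. Dnd1, an RNA-binding protein of primordial germ cells, was lower in the OCT4 cells than in J1 (-0.65, SE 0.206) and lay within the range of J1 or below it in the EWS-OCT4 cells. It passed as higher in the EWS-OCT4 than in the OCT4 cells without EWS-OCT4 replicate 3 (0.56, adjusted p = 0.0215) and not otherwise. Dnd1 overlaps Wdr55 on the opposite strand.

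**Figure D4:**
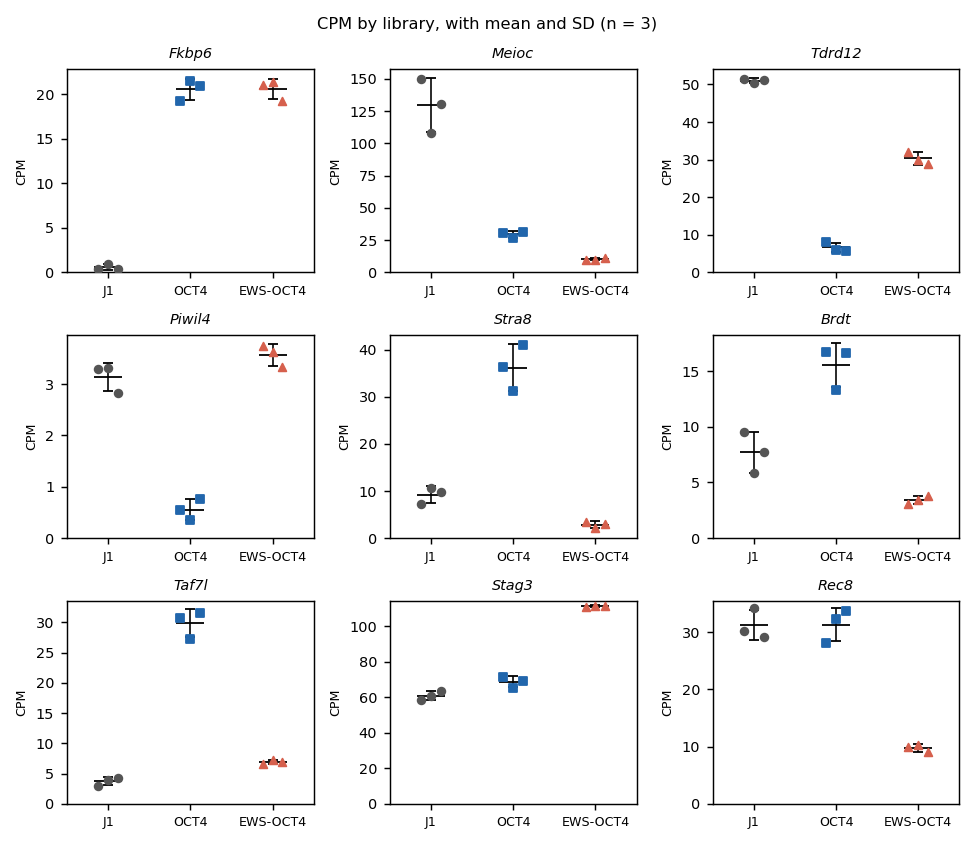
CPM of 9 members in each library on linear axes from 0, with bars for the mean and SD of 3 libraries. Fkbp6 is near 0 in J1 alone, Piwil4 in the OCT4 cells alone, and Stra8 and Brdt are highest in the OCT4 cells and lowest in the EWS-OCT4 cells.

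The other germline genes followed several patterns. Tex19.1 stood at 84.8, 89.2 and 76.1 CPM in J1 and near a lower common level in the stable lines, 33.9, 34.4 and 29.7 in the OCT4 cells and 34.6, 31.7 and 29.3 in the EWS-OCT4 cells. Its log2 fold change was -1.35 (SE 0.0853) and -1.39 (SE 0.0855), beside chromosome 11 medians of -0.47 and -0.51, and 6.31% of its 31-base words are shared with Tex19.2. Rpl10l rose to 67.0, 62.8 and 59.7 CPM in the EWS-OCT4 cells, above J1 (30.7, 25.1 and 24.5) and the OCT4 cells (38.8, 30.4 and 29.4), with 23.36% of its words shared, mostly with Gm14460. Its call in the OCT4 cells against J1 (0.29, SE 0.107) was lost without J1 replicate 2 or 3 or OCT4 replicate 1 (adjusted p up to 0.179).

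Dpep3, a germ cell surface dipeptidase on chromosome 8, had 56, 49 and 35 counts in the J1 libraries, 42, 43 and 28 in the OCT4 cells and 8, 10 and 7 in the EWS-OCT4 cells. The EWS-OCT4 cells were thus lower than both, at a log2 fold change of -2.39 (SE 0.314) against J1 where the chromosome median was -0.45, and Gm45752 overlaps Dpep3 on the opposite strand. Stk31, a Tudor-domain kinase-like protein, resembled Dazl, with 20.3 ± 0.585 CPM in the OCT4 cells against 11.03 ± 0.812 in J1 and 11.3 ± 1.13 in the EWS-OCT4 cells (SD, n = 3). The lowest-count members of this class were least certain. Slc25a31, a testis ADP/ATP carrier, had 17 to 57 counts a library, and its call in the EWS-OCT4 cells against J1 (0.73, SE 0.281) was lost without EWS-OCT4 replicate 1 or 2 or J1 replicate 2 or 3 (adjusted p up to 0.135). Tex101, a germ cell surface protein, had 7 to 45 counts. It was called lower in both stable lines, but in the EWS-OCT4 cells the call was lost without any of EWS-OCT4 replicates 1, 2 and 3 or J1 replicates 1 and 2 (adjusted p up to 0.0761). In the OCT4 cells it was lost without J1 replicate 1 or 2, OCT4 replicate 1 or 3, or in a fit of only the 6 libraries compared (adjusted p up to 0.158).

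Further genes of the same pathways were counted from lists that are not members. Of 29 other meiosis genes, 23 were tested. Against J1, 10 were higher and 9 lower in the OCT4 cells, beside 34.3% and 32.7% of all tested genes. In the EWS-OCT4 cells 6 were higher and 12 lower, beside 30.3% and 31.6%. Between the stable lines 5 were higher and 11 lower, beside 31.9% and 34.6%. Rec114, a partner in double-strand break formation, was at 20.3 ± 0.917 CPM in the OCT4 cells against 7.61 ± 0.520 in J1 and 6.09 ± 0.407 in the EWS-OCT4 cells. Tex12, a central element protein, rose in both stable lines, from 0.0604 ± 0.0726 CPM in J1 to 1.30 ± 0.150 in the OCT4 cells and 0.726 ± 0.142 in the EWS-OCT4 cells. Msh5, a crossover factor, also rose in both, from 0.751 ± 0.130 to 2.15 ± 0.462 and 1.30 ± 0.267 CPM. In both stable lines Meiob and Mei1, which act in recombination, fell from J1, Meiob from 1.94 ± 0.131 to 0.441 ± 0.149 and 0.375 ± 0.300 CPM. Meiosin, the partner of STRA8, had 1.49 ± 0.0956 CPM in the EWS-OCT4 cells against 0.595 ± 0.130 in the OCT4 cells and 0.312 ± 0.198 in J1 (SD, n = 3), and Msh4 rose from 0.180 ± 0.0520 CPM in J1 to 0.602 ± 0.163 in the OCT4 cells and 1.29 ± 0.179 in the EWS-OCT4 cells. Meiosin and Stra8 thus differed in opposite directions between the stable lines.

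Of 15 other piRNA genes, 14 were tested. Against J1, those higher and lower numbered 6 and 4 in the OCT4 cells, beside 34.3% and 32.7% of all tested genes. They numbered 1 and 7 in the EWS-OCT4 cells, beside 30.3% and 31.6%. Between the stable lines they numbered 2 and 9, beside 31.9% and 34.6%. The median in that last comparison was -0.54 beside -0.04 for all tested genes. Piwil1, the PIWI protein MIWI, fell from 9.03 ± 0.534 CPM in J1 to 1.88 ± 0.299 in the OCT4 cells and 2.76 ± 0.235 in the EWS-OCT4 cells, and Tdrd5 from 14.9 ± 0.918 to 7.27 ± 0.723 and 3.95 ± 0.387. Btbd18, a nuclear factor for piRNA precursor transcription, rose from 1.35 ± 0.0626 CPM to 6.32 ± 0.816 and 3.24 ± 0.912. Mybl1, the A-MYB regulator of pachytene piRNA genes, was at 88.7 ± 7.28 CPM in the OCT4 cells against 55.2 ± 5.81 in J1 and 43.3 ± 1.29 in the EWS-OCT4 cells (SD, n = 3).

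Factors known to act on the silencing of germline promoters, with enzymes that oppose it, were also counted. Of 18, 4 were higher and 10 lower in the OCT4 cells than in J1, beside 34.3% and 32.7% of all tested genes. Against J1 the EWS-OCT4 cells had 10 higher and 4 lower, beside 30.3% and 31.6%. The EWS-OCT4 cells exceeded the OCT4 cells for 13 and fell below them for 3, beside 31.9% and 34.6%. Dnmt3a, a de novo DNA methyltransferase, was lower in both, at 87.7 ± 2.53 and 46.0 ± 1.22 CPM against 228 ± 9.24 in J1. Dnmt3b was at 174.8 ± 0.238 CPM in the EWS-OCT4 cells against 87.0 ± 6.46 in the OCT4 cells and 87.5 ± 5.51 in J1. Max, a partner of MGA, fell from 132 ± 4.58 CPM in J1 to 59.0 ± 2.89 in the OCT4 cells and 97.1 ± 4.13 in the EWS-OCT4 cells. E2f6 fell from 26.1 ± 3.25 to 20.3 ± 2.17 and 18.96 ± 0.516 CPM, with no call between the stable lines. Mga itself was not called in any comparison. Its level was 288.6 ± 39.7 CPM in J1, 290.3 ± 17.1 in the OCT4 cells and 293.5 ± 5.95 in the EWS-OCT4 cells. Tet3, which oxidises methylated cytosine, was at 38.0 ± 4.79 CPM in the OCT4 cells against 11.5 ± 2.13 in J1 and 12.1 ± 1.30 in the EWS-OCT4 cells (SD, n = 3). The more abundant Tet2, an enzyme of the same kind, was lowest in the OCT4 cells. It stood at 120 ± 2.19 CPM there against 163 ± 13.6 in J1 and 288 ± 4.93 in the EWS-OCT4 cells. Whether these levels bear on the members was not tested, and promoter methylation was not measured.

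**Figure D5:**
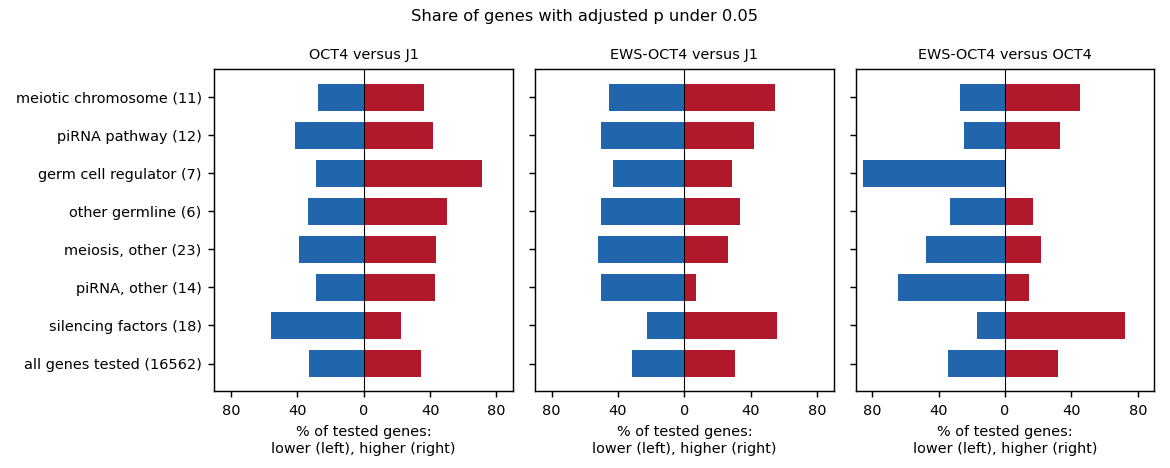
Share of tested genes called higher (right, red) or lower (left, blue) in each comparison for the 4 classes of members, 3 lists of related genes and all tested genes, with the number tested in parentheses. Germ cell regulators have no right-hand bar between the stable lines. Silencing factors, pooled with opposing enzymes, lean right in the EWS-OCT4 cells and left in the OCT4 cells against J1.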

How the data were processed

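Whole-number counts per gene symbol, 1 table for each of 9 libraries, were deposited by the authors without normalization. Per the submitters' processing notes, the tools included STAR, Salmon, fastp and GATK and the build was GRCm39. Tool versions, gene annotation, strand setting and any use of molecular identifiers were not given in the sources used here. Groups and replicate numbers came from sample titles. Genes were kept by filterByExpr (minimum count 10, minimum total 15; 16562 genes), scaled by TMM and fitted in 1 edgeR 4.0.16 model of 3 groups (R 4.3.3) with robust glmQLFit and glmQLFTest. P-values were adjusted over all tested genes at 0.05, and an SE is the size of the log2 fold change over the square root of F. The test was checked on simulated data. Members, classes and lists were chosen with earlier results of these data known. All 36 members are accounted for. From each list of related genes, up to 3 per direction and comparison with adjusted p under 0.05, no overlap and at least 1 CPM in the higher group could be named. GENCODE M21 gave chromosomes, transcript lengths and shared 31-base words, and RefSeq (GRCm38.p6) promoters; no position from either was joined to the counts. Alternatives were RLE and upper-quartile scaling, other filters, DESeq2 1.42.0, limma-voom (limma 3.58.1), the 6 libraries compared, a replicate block and leaving out each library.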

Additional observations from a re-analysis of the deposited data

Results flagged for a closer look

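Stra8 and Brdt were flagged because each moved in opposite directions against J1 in the 2 stable lines, higher in the OCT4 cells and lower in the EWS-OCT4 cells. Opposite calls of this kind were found in 10.6% of all tested genes. Since the genes were picked for those opposite calls, their difference between the stable lines is a description and not a further test. The log2 fold change, EWS-OCT4 over OCT4, was -3.66 for Stra8 and -2.18 for Brdt, and all 3 EWS-OCT4 libraries were below all 3 OCT4 libraries.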

How the results depend on the processing

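No member reversed direction in any alternative where it was called. Of the member values recomputed under the alternatives, 1792 kept their side of the threshold, 35 lost it and 9 gained it. Leaving out members on chromosomes 8, 11 and X, chosen after seeing the data, left 29 members. Of these the EWS-OCT4 cells had 14 higher and 11 lower and the OCT4 cells 16 higher and 7 lower against J1. The balance in the EWS-OCT4 cells thus turned from more lower to more higher. All tested genes on chromosomes 8, 11 and X had medians of -0.45, -0.51 and 0.15 in that comparison. Chromosome 12, with a median of -0.31, was kept. No such count was made for all tested genes, so the turn is not shown to be particular to the members. With each library left out in turn, meiotic chromosome genes called higher in the OCT4 cells against J1 ranged from 2 to 5. The other counts over all members, meiotic chromosome genes and piRNA genes stayed within 1.5 times under the alternatives run, and class medians of log2 CPM differences moved by less than the spread of replicates under prior counts of 0.5 and 5. Among the other germline genes, the losses of Slc25a31 and Tex101 given above each take a count of calls from 2 to 1 (higher in the EWS-OCT4 cells and lower in the OCT4 cells, against J1). Same-numbered libraries of different groups correlated between -3.17e-05 and 0.0737 in their deviations from group means, and differently numbered ones between -0.0644 and 0.0334. Both ranges were small, so numbers were not taken to pair libraries, but a weak shared effect was not tested. A replicate block raised the calls over all tested genes from 11098 to 11356 in the OCT4 cells and from 10249 to 10534 in the EWS-OCT4 cells against J1. Between the stable lines they rose from 11012 to 11246. With the replicate number as a block, 17 members were higher and 13 lower in the OCT4 cells and 15 and 17 in the EWS-OCT4 cells against J1, and 10 and 14 between the stable lines; Mael was the added call. With counts of 3 to 16 a library in J1, depth limits the folds of Asz1 and Tdrd9.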

Other observations

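Calls were also divided by promoter motif, a split made after the promoter matches were seen. Of the 15 members with an E-box, 11 were higher and 2 lower in the OCT4 cells than in J1, while the EWS-OCT4 cells had 9 higher and 5 lower. Of the 17 members with a promoter window and no E-box, 6 were higher and 6 lower in the OCT4 cells, while the EWS-OCT4 cells had 6 higher and 9 lower. Among all 1415 tested genes with an E-box, 30.9% were higher and 36.1% lower in the OCT4 cells, and 31.1% and 31.6% in the EWS-OCT4 cells. Of the 11111 tested genes with a window and no E-box, 35.0% were higher and 32.3% lower in the OCT4 cells. In the EWS-OCT4 cells those shares were 31.1% and 31.7%.

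Of the 10 members with the E2F-type motif (Ddx4, Hormad1, Hsf2bp, Meioc, Rpl10l, Slc25a31, Smc1b, Stag3, Syce2 and Sycp3), 8 were higher in the EWS-OCT4 cells than in J1, all but Meioc and Syce2, against 33.4% of the 1173 tested genes with that motif. The OCT4 cells had 7 higher and 2 lower, against 35.4% and 33.0% of those genes. Between the stable lines the EWS-OCT4 cells had 5 of these 10 higher and 2 lower, while the 22 members with a window lacking it had 3 higher and 11 lower. Among all tested genes 35.6% were higher and 33.5% lower with the motif, and 32.3% and 34.9% without it. The groups are small, their members overlap, and no difference between them was tested.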
